A study of Oryza sativa with 60 samples.

Results

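Rice seedlings of the cultivar Nipponbare were collected at 8 days and at 2 weeks of age, and both their gene expression and their pseudouridine (Ψ) levels were read from poly(A)-enriched RNA. This comparison held 10 of the 60 samples of the series, 5 at each age, and its members were all samples whose labels name either seedling age. No treatment, mutation or transgene separated the ages. Per the methods of the study the plants germinated on plates of Murashige and Skoog medium and were moved to soil later, and the labels give the tissue only as seedling, without saying whether roots were included or how many plants went into a sample. Expression was available for 38978 genes in 2 libraries an age, as TPM, a transcript level scaled for gene length and library depth. The Ψ fraction, which says how often a uridine is modified among the transcripts that hold it, was available at both ages for 8824 of the 9126 sites in the table. The authors pooled the replicates of an age into 1 fraction for each site, so Ψ values below carry no replicate error and no test.

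Ψ is an isomer of uridine that pseudouridine synthases make within an RNA chain. Bisulfite forms an adduct with Ψ, and reverse transcriptase then leaves a deletion in the copy, which is what BID-seq counts. A rice seedling first draws on the reserves of the grain and then comes to depend on its own leaves. Chloroplasts and mitochondria keep small genomes of their own. These encode part of the subunits of the photosystems, of the respiratory complexes and of the organelle ribosomes, while the other subunits come from nuclear genes.

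The seedling libraries held 4183137 and 3198076 read equivalents at 8 days and 6700007 and 9006639 at 2 weeks, where a read equivalent is TPM times gene length divided by the smallest common step of a library. Between 23437 and 23978 genes reached 1 TPM in each. The replicates of an age lay close together, with Pearson's r across genes of 0.988 at 8 days and 0.994 at 2 weeks on the log2(TPM + 1) scale. Their read equivalents were compared only at genes where they came out whole in both libraries and reached at least 10 together. There they differed by a little more than sampling noise. The chi-square per gene was 1.05 over 10143 genes at 8 days (chi-square p = 7.6e-04). At 2 weeks it was 1.20 over 8279 genes (chi-square p = 2.7e-34). The methods of the study call the replicates biological, but neither they nor the labels say how the seedling replicates were drawn from plants. The p-values here measure the spread between libraries of a group, estimated over all 12 groups of the series and not from the seedlings alone. Among those groups, radicle in the light had a chi-square per gene of 8.42. In such samples, fewer cells of a type and less RNA per cell cannot be told apart.

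Expression differed widely between the ages. Of 29987 genes tested with limma, 8244 were higher and 7158 lower at 2 weeks at a Benjamini-Hochberg adjusted p under 0.05, which is 51.4% of the genes tested (27.5% higher and 23.9% lower). The libraries of the 2 ages did not overlap for 74.9% of the genes tested. Most changes were of moderate size. At 2-fold or more on the log2(TPM + 1) scale, 3774 genes were higher and 3898 lower, and at 16-fold or more 104 were higher and 72 lower. The median change of all genes was 0.01 on the log2 scale, with quartiles of -0.52 and 0.57. The 100 nuclear genes with the highest mean TPM had 22 members higher, 22 lower and 56 not past the threshold, with a median change of -0.44.

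**Figure D1:**
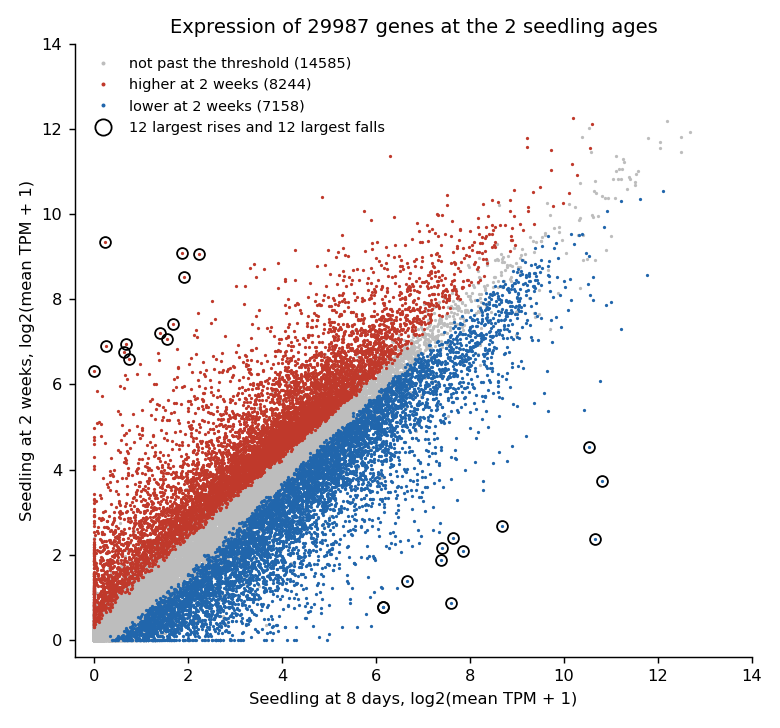
Mean level of each of 29987 tested genes at 8 days (x axis) and 2 weeks (y axis), both as log2(mean TPM + 1) over 2 libraries. Red points are the 8244 genes higher at 2 weeks, blue points the 7158 lower, grey points did not pass the threshold, and open circles mark the 12 largest rises and 12 largest falls, which stand far off the diagonal.

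The nuclear genes are given by their identifiers, because the files do not pair them with names and the reference gene table holds 1 of the 37849 identifiers that start with Os and none of those named below. The 12 largest rises among well expressed genes went from means of 0 to 3.68 TPM at 8 days to means of 79.3 to 655 TPM at 2 weeks. At 8 days 6 of the 12 had a mean under 1 TPM. Os07g0529000 on chromosome 7 (20691213 to 20693521, minus strand, IRGSP-1.0) stood at 0.150 and 0.196 TPM in the libraries at 8 days and at 682 and 628 TPM at 2 weeks. The log2 change was 9.13 ± 0.54 (SE, n = 2 an age, limma adjusted p = 2.1e-09). The highest mean in any other group was 25.0 TPM in embryo at 10 days after anthesis (DAA). Os01g0615100 on chromosome 1 stood at 1.94 and 3.38 TPM at 8 days and at 520 and 561 TPM at 2 weeks. Its neighbour Os01g0615050, on the other strand, went from 0.491 and 0.641 to 107 and 106 TPM. For this pair flag leaf at 10 DAA was the highest of the other groups.

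Os12g0550800 on chromosome 12 was the most restricted of these genes. It stood at 0.176 and 0.230 TPM at 8 days and at 117 and 119 TPM at 2 weeks, and the highest mean outside the seedlings was 0.543 TPM in panicle at heading. Os01g0382000 was listed at 0 in both libraries at 8 days and at 79.2 and 79.4 TPM at 2 weeks. In flag leaf at heading this gene reached a mean of 422 TPM, above its level at 2 weeks. Os12g0226700 had the same order, with means of 0.684 TPM at 8 days, 95.2 TPM at 2 weeks and 278 TPM in flag leaf at 10 DAA, and so had Os02g0306401, which was highest in straw at heading with 239 TPM. For the other 9 of the 12 genes, no other group of the series had a higher mean than the seedling at 2 weeks.

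The 12 largest falls started from means of 69.9 to 1793 TPM at 8 days and ended at 0.704 to 22.0 TPM at 2 weeks. Os09g0538000 on chromosome 9 (21165219 to 21167647, minus strand) stood at 1594 and 1648 TPM at 8 days and at 3.83 and 4.53 TPM at 2 weeks, a difference of -8.29 ± 0.35 (SE) on the log2 scale (limma adjusted p = 6.3e-11). Os09g0537700, which lies within 10 kb of it on the same strand, went from 1803 and 1784 TPM to 10.8 and 13.7 TPM. Both genes were among the abundant transcripts at 8 days. They differed in the germinating shoot: plumule in the light had a mean of 3481 TPM of Os09g0538000, above its level at 8 days, but 172 TPM of Os09g0537700, whose level at 8 days was the highest in the series.

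Plumule, the embryonic shoot, was the highest of the other groups for 11 of these 12 genes. For Os12g0548700, Os12g0548401, Os06g0705400, Os12g0548501 and Os03g0836800 the mean in plumule in the dark was between 2037 and 9626 TPM, above the level at 8 days, so that these genes had the order plumule in the dark, 8 days, 2 weeks. In plumule in the light the same order held except for Os06g0705400, with a mean of 177 TPM there and 230 TPM at 8 days. Os03g0836800, for example, had 2037 TPM in plumule in the dark, 103 and 98.1 TPM at 8 days and 1.78 and 1.42 TPM at 2 weeks. The high level was not limited to the shoot. Radicle in the dark had means of 7048 TPM for Os12g0548700, 2832 for Os12g0548401, 1062 for Os12g0548501 and 1806 for Os03g0836800. For Os06g0705400 it had 0.825 TPM. Os01g0106400 was the exception among the 12, with its highest other mean of 212 TPM in radicle in the light. Os03g0339300 stood at 193 and 191 TPM at 8 days and at 0.867 and 0.802 TPM at 2 weeks, and its highest other mean was 47.3 TPM in plumule in the dark. The 2 plastid entries EPlORYSAT000373862 and EPlORYSAT000373872 had the same values in all 4 libraries (66.5 and 73.4 TPM at 8 days, 0.357 and 1.05 TPM at 2 weeks) and lie on opposite strands of the plastid genome, so they were read as copies that share reads and count as 1 observation.

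**Figure D2:**
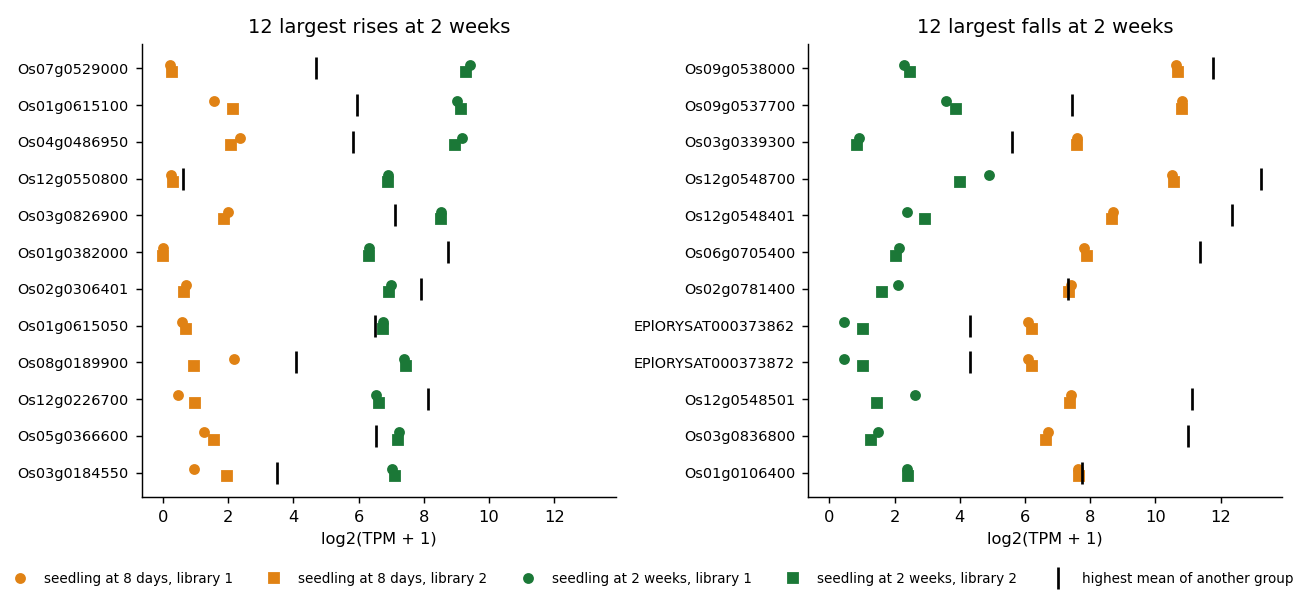
Level of the 12 genes with the largest rise (left) and the 12 with the largest fall (right), as log2(TPM + 1) on the x axis, with circles and squares for library 1 and 2 of each age and a black tick for the highest mean of the other 10 groups. Rises began at means of at most 3.68 TPM, the libraries of the ages did not overlap, and for the falls the tick often lies above the level at 8 days.

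Some of the strongest changes lay side by side on a chromosome. Among genes changed at least 8-fold with a mean of at least 10 TPM, 279 were higher, and 19 of them fell in 6 runs of at least 3 genes whose starts lay within 50000 bases of the next. Of the 186 lower genes, 9 fell in 3 runs. How many such runs the spacing of all tested genes would give was not tested. Some runs also held genes outside the rule, as where Os11g0115100, Os11g0116300 and Os11g0116400 lay in a span with 8 tested genes. On chromosome 12, Os12g0548401, Os12g0548501 and Os12g0548700 filled 9.83 kb with no other tested gene between them, and fell from means of 410, 168 and 1485 TPM to 5.41, 3.48 and 22.0 TPM. On chromosome 11, Os11g0444400, Os11g0444700 and Os11g0444900 rose from 2.57, 39.8 and 28.1 TPM to 28.7, 522 and 251 TPM. On chromosome 6, Os06g0335950, Os06g0335975 and Os06g0335900 rose within 6.46 kb, from means between 0.603 and 3.19 TPM to means between 28.2 and 97.5 TPM. Genes in such runs can be near-identical copies that share reads, which was not tested because no sequence was used, and their single values are uncertain to that extent.

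The seedling ages were next described by genes that mark the other organs. For each organ, a list was made from the libraries of the other groups alone, taking genes with at least 10 TPM in every library of that organ and at least 5 times the highest value of any other library, with the seedlings and radicle in the light left out. These lists stand in for named markers and were made with results of these data known. Of the 150 flag leaf genes, 105 were higher at 2 weeks and 10 lower, which is 70.0% higher against 27.5% of all genes, with a median change of 1.20 on the log2 scale. Their summed level was 1920 and 1903 TPM at 8 days and 4887 and 4952 TPM at 2 weeks, against at least 18524 TPM in the flag leaf libraries. The level of a list in its own organ is high by the choice of its genes, here and below, and is given only for scale. Between the seedling ages, the sum of the flag leaf list was higher at 2 weeks. Os08g0139700 and Os12g0222300 had the largest rises of the list. Os08g0139700 went from 0 and 0.0968 TPM to 54.1 and 58.5 TPM, and Os12g0222300 from 0.545 and 0.712 TPM to 64.9 and 73.6 TPM. Os09g0541000 went the other way, from 386 and 391 TPM to 19.4 and 20.9 TPM.

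The plumule list changed in the opposite direction. Of its 60 genes, 42 were lower at 2 weeks and none higher, which is 70.0% lower against 23.9% of all genes, with a median change of -1.72. The summed level was 8991 and 8828 TPM at 8 days and 2109 and 2051 TPM at 2 weeks, against at least 31462 TPM in plumule. Os05g0217800 of this list went from 803 and 803 TPM to 43.4 and 37.5 TPM (limma adjusted p = 1.0e-04). Os01g0251400, the most abundant gene of the list, went from 1390 and 1330 TPM to 495 and 480 TPM and was not past the threshold (limma adjusted p = 0.12), and it passed without radicle in the light in the fit (limma adjusted p = 0.0085).

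The radicle list had a mixed pattern. Of its 530 genes, 174 were lower at 2 weeks, 57 higher and 299 not past the threshold, which is 32.8% lower and 10.8% higher against 23.9% and 27.5% of all genes, with a median change of -0.29. The median level of a gene was 1.29 TPM at 8 days and 0.603 TPM at 2 weeks, against 55.9 TPM in radicle. The summed level nevertheless was 7902 and 7804 TPM at 8 days and 9557 and 8962 TPM at 2 weeks. Os04g0659300, the most abundant gene of the list, had 603 and 573 TPM at 8 days and 3263 and 2818 TPM at 2 weeks. Without this gene the sum went the other way, from 7299 and 7230 TPM to 6294 and 6145 TPM. Os11g0307300 had the largest fall of the list, from 48.0 and 47.4 TPM to 0.359 and 0.108 TPM. The lists for panicle, embryo and endosperm held 436, 222 and 353 genes. Of these 22, 26 and 8 were higher (5.05%, 11.7% and 2.27%, against 27.5% of all genes). Lower were 43, 35 and 8 (9.86%, 15.8% and 2.27%, against 23.9% of all genes). The median changes were between 0.00 and 0.02. Most genes of these lists were low in the seedlings, with median levels of 0.084, 0.932 and 0.327 TPM at 8 days, and of all genes with a mean under 1 TPM in the seedlings only 15.0% were called in either direction. The endosperm counts depended on the fit, with 37 higher and 31 lower when only the 4 seedling libraries entered it, and 3 to 4 higher and 3 to 5 lower when any of the 4 was left out. The embryo list had 47 genes higher without radicle in the light in the fit. The summed level of the endosperm list was 1799 and 1835 TPM at 8 days and 1920 and 1860 TPM at 2 weeks, against at least 242705 TPM in endosperm. Of the 23 straw genes, 4 were higher and 6 lower, which is 17.4% and 26.1% against 27.5% and 23.9% of all genes.

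**Figure D3:**
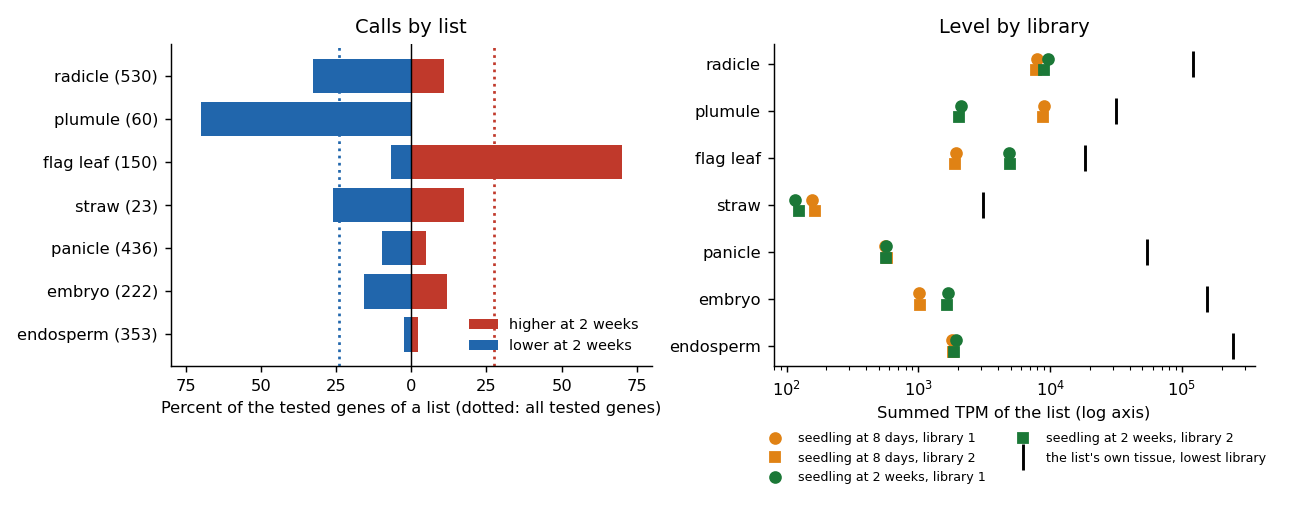
Left, percent of the tested genes of each organ list that were higher (red, to the right) or lower (blue, to the left) at 2 weeks, with dotted lines at 27.5% and 23.9% for all tested genes. Right, summed TPM of each list on a log axis in the 2 libraries of each age, with a tick at the lowest library of the list's own organ. Flag leaf genes were mostly higher, plumule genes were lower, and panicle and endosperm genes lay close together at both ages.

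The genes called between the seedling ages were also counted in comparisons of other groups that use no seedling library. Among the genes lower at 2 weeks, 4041 were higher in straw than in flag leaf at heading, against 28.5% of all genes tested. They made up 56.5% of the 7158 genes and 47.3% of all genes higher in straw. Between panicle and flag leaf at heading, 53.5% of the genes lower at 2 weeks were higher in panicle, against 37.1% of all genes, and 36.2% of the genes higher at 2 weeks were lower in panicle, against 23.0% of all genes. Between radicle and plumule in the dark, 51.2% of the genes lower at 2 weeks were lower in radicle, against 35.1% of all genes. Genes higher at 2 weeks were more evenly divided there, with 33.6% higher and 30.3% lower in radicle, against 24.2% and 35.1% of all genes. Between flag leaf at 10 DAA and at heading they were even, with 19.7% higher and 19.6% lower, against 13.3% and 17.3% of all genes. Between embryo and endosperm at 10 DAA, 38.4% of the genes lower at 2 weeks and 25.6% of those higher were higher in embryo, against 27.6% of all genes. Between plumule in the light and in the dark, 25.8% and 28.2% were higher in the light, against 20.1% of all genes. The share was 12.65% of the genes not past the threshold between the ages. These shares are descriptions, since genes are not independent and all comparisons came from 1 fit. They also depend on level: between the ages, 15.0% of genes with a mean under 1 TPM were called. From 10 to 100 TPM 65.3% were. The part of level in these shares was not tested. The comparisons with straw, panicle and flag leaf at 10 DAA also share the libraries of flag leaf at heading.

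Genes of the plastid genome, which the table names, were more often lower than higher at 2 weeks. Of 59 named plastid genes 57 were tested, and 29 were lower, 4 higher and 24 not past the threshold, which is 50.9% lower and 7.02% higher against 23.9% and 27.5% of all genes, with a median change of -0.51. When any of the 4 seedling libraries was left out, 22 to 26 were lower. Entries with a length under 50 bases (petB, petD, rpl16 and rps16) have no usable TPM. The counts and the median above still hold them. Of these entries rpl16 was among the lower genes, and the median is its value, while petB, petD and rps16 did not pass. The copies rps7 and rps7-2 are both counted as higher, and the copies rps15 and rps15-2 both as lower. Without the short entries the summed level of the other 55 named genes was 1260 and 1250 TPM at 8 days and 1035 and 1069 TPM at 2 weeks. In flag leaf at heading, the group with the highest mean, it was 1302 and 1235 TPM. Plastid entries without a gene name were counted once where they share all values in the 4 libraries. Of 38 tested, 19 were lower (50.0%, against 23.9% of all genes) and 2 higher. The sum of these entries went from 935 and 937 TPM to 307 and 319 TPM. Further pairs among them had nearly the same values and were not merged, so that even this count holds copies. Poly(A) enrichment was done in a single round, and plastid and mitochondrial RNAs as a rule lack the long poly(A) tail of nuclear messengers, so their TPM also depends on how much such RNA stayed in a library. The part of this in the changes was not tested.

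Photosystem II, the complex that splits water, had 12 genes, of which 9 were lower and 1 higher. The core antenna gene psbB went from 117 and 116 TPM at 8 days to 12.1 and 12.8 TPM at 2 weeks, a difference of -3.12 ± 0.19 (SE) on the log2 scale (limma adjusted p = 2.3e-09). psbA, which encodes the D1 reaction centre protein, went from 36.1 and 37.4 TPM to 14.4 and 14.9 TPM. psbD, which encodes the partner protein D2, did not follow, with 39.2 and 42.7 TPM at 8 days and 39.8 and 42.4 TPM at 2 weeks. The other core antenna gene, psbC, fell less than psbB, from 53.9 and 52.8 TPM to 30.6 and 34.1 TPM, and its call was lost without replicate 1 at 2 weeks (limma adjusted p = 0.065). The calls of 2 small subunit genes were lost as well, that of psbE when any of the 4 libraries was left out (limma adjusted p between 0.057 and 0.13) and that of psbI without replicate 2 at either age (0.093 in both cases). The small subunit gene psbM was the member that rose, from 123 and 120 TPM to 228 and 219 TPM (limma adjusted p = 0.0062).

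Photosystem I showed the widest divergence within a complex. psaA and psaB, which encode the paired reaction centre proteins, went from 16.9 and 15.0 TPM to 1.52 and 1.48 TPM and from 22.0 and 20.2 TPM to 3.03 and 2.65 TPM. psaC, which encodes the iron-sulphur subunit at the electron acceptor side, rose from 50.9 and 51.7 TPM to 234 and 261 TPM, a difference of 2.25 ± 0.32 (SE) on the log2 scale (limma adjusted p = 2.7e-05). psaC lies next to genes of the NDH complex, which passes electrons back to the plastoquinone pool, and those went the other way. All 5 tested members, ndhA, ndhD, ndhE, ndhF and ndhG, passed the threshold and fell by between 0.44 and 1.07 on the log2 scale, and their summed level was at most 13.6 TPM. The call of ndhD was lost without replicate 2 at 2 weeks (limma adjusted p = 0.12) or at 8 days (0.068), and that of ndhE without replicate 1 at 2 weeks (0.054) or replicate 2 at 8 days (0.071).

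The remaining complexes of the thylakoid membrane were lower or not past the threshold. petA, which encodes cytochrome f of the cytochrome b6f complex, went from 4.96 and 4.03 TPM to 0.869 and 1.37 TPM. petB and petD did not pass, and their lengths in the table are 6 and 8 bases, so their TPM is not a usable level. Of the ATP synthase genes, atpI fell by 1.79, atpH fell by 1.72 and atpF fell by 1.09 on the log2 scale, while atpA, for the alpha subunit, had 16.4 and 16.9 TPM at 8 days and 19.4 and 21.7 TPM at 2 weeks and did not pass (limma adjusted p = 0.14). Among the RNA polymerase genes rpoA and rpoC2 were lower, and rpoB and rpoC1 did not pass. petE, as the table names it, was lower, and infA did not pass. The call of atpF was lost when any of the 4 seedling libraries was left out (limma adjusted p between 0.074 and 0.15), that of petE without replicate 1 at either age (0.13 in both cases), and that of rpoC2 without replicate 1 at 2 weeks (0.055).

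The plastid ribosomal protein genes changed least, with a median of -0.04 over 24 entries. Of these 6 were lower, 2 higher and 16 not past the threshold. This is 25.0% lower and 8.33% higher, against 23.9% and 27.5% of all genes, so the share lower was near that of all genes. rpl20 went from 80.4 and 92.1 TPM to 29.2 and 33.5 TPM, and rps14 from 32.2 and 35.0 TPM to 10.4 and 11.6 TPM. rpl23 stayed within 21.2 and 23.0 TPM in all 4 libraries. The 2 entries higher at 2 weeks were the copies rps7 and rps7-2, which share all their values (1.07 and 1.57 TPM at 8 days, 2.18 and 2.02 TPM at 2 weeks), and rps15 and rps15-2 likewise count as 1 observation among the lower genes. The call of rps7 and its copy was lost without either library at 2 weeks or without replicate 1 at 8 days (limma adjusted p between 0.084 and 0.28), and that of rpl16 without replicate 1 at 2 weeks or replicate 2 at 8 days (0.17 and 0.18). rps16 and rpl16 have lengths of 40 and 9 bases in the table, and rps16, at 1.72 on the log2 scale, did not pass (limma adjusted p = 0.055).

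**Figure D4:**
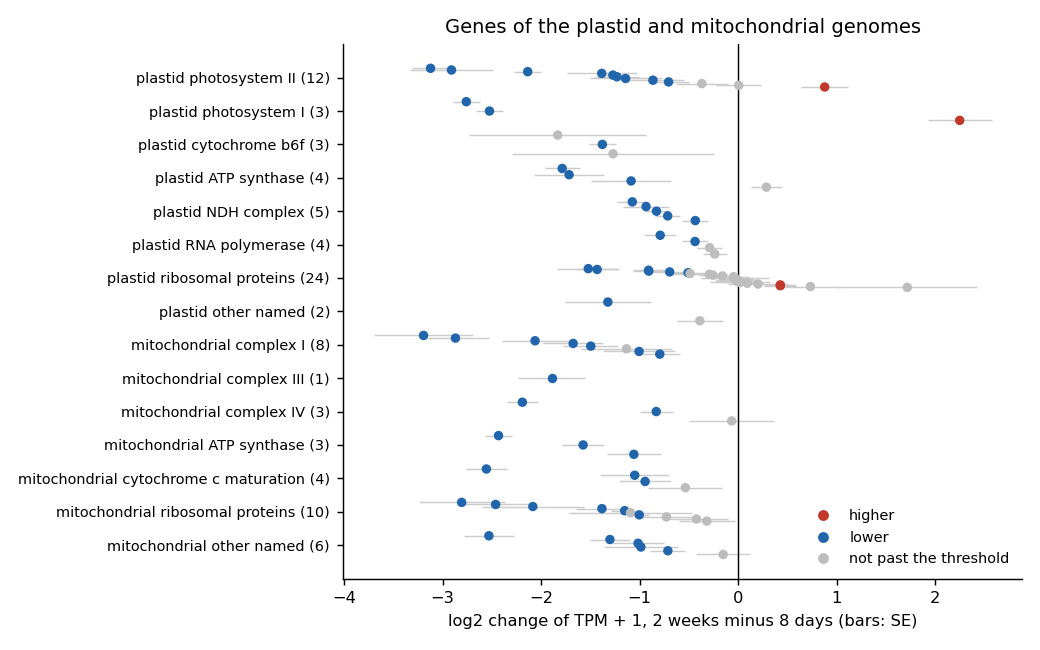
Change between the ages on the log2 scale (x axis, 2 weeks minus 8 days, bars 1 SE) for each tested gene of the plastid and mitochondrial genomes, 1 row per complex with the number of genes tested. Points left of 0 were lower at 2 weeks. The mitochondrial rows lie left of 0, and among the plastid rows psaC, rps16 (not past the threshold) and psbM lie farthest to the right.

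Mitochondrial genes were lower at 2 weeks without exception in direction. Of 53 named genes 35 were tested, all 35 had a change below 0, 27 (77.1%, against 23.9% of all genes) passed the threshold and none was higher, with a median of -1.13 on the log2 scale. Their summed level was 274 and 310 TPM at 8 days and 82.5 and 91.9 TPM at 2 weeks, the lowest mean of the 12 groups. Complex I, the NADH dehydrogenase, had 7 of 8 tested members lower (87.5%, against 23.9% of all genes). Among these nad7 went from 9.42 and 10.1 TPM to 0.374 and 0 TPM. nad2 was listed at 0 in both libraries at 2 weeks, and its call was lost without either of them or without replicate 2 at 8 days (limma adjusted p between 0.097 and 0.30). cob, for cytochrome b of complex III, went from 8.32 and 5.13 TPM to 1.61 and 0.584 TPM. In complex IV cox3 went from 23.6 and 23.2 TPM to 4.19 and 4.52 TPM, cox1 fell by 0.83 on the log2 scale and cox2 did not pass (limma adjusted p = 0.94).

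All 3 tested mitochondrial genes named atp, for subunits of the ATP synthase, were lower (atp1, atp6 and atp9). Genes named only as orf were counted outside the complexes. Among those, orf25 was lower and orfB did not pass (limma adjusted p = 0.70). atp1, for the alpha subunit, went from 9.87 and 9.46 TPM to 1.05 and 0.900 TPM, a difference of -2.43 ± 0.14 (SE) on the log2 scale (limma adjusted p = 1.2e-09). Its plastid counterpart atpA did not pass the threshold, and the difference between the 2 genes was not tested. atp9, for the ring subunit, went from 23.1 and 35.1 TPM to 12.4 and 13.9 TPM, and its call was lost without replicate 2 at 8 days (limma adjusted p = 0.068). Of the genes for cytochrome c maturation, ccmFn had the largest change, from 16.1 and 17.9 TPM to 2.10 and 2.03 TPM. rps1 was the most abundant mitochondrial gene at both ages, with 101 and 112 TPM at 8 days and 50.7 and 54.4 TPM at 2 weeks. Of 10 ribosomal protein genes, 6 were lower (60.0%, against 23.9% of all genes). Mitochondrial entries without a gene name were counted once where they share all values in the 4 libraries. Of 31 tested, 12 were lower (38.7%, against 23.9% of all genes) and none higher. The sum of these entries went from 219 and 220 TPM to 88.3 and 82.4 TPM.

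Ψ fractions were first compared at the sites that passed the authors' filter at both ages, and were slightly lower there at 2 weeks. The authors' flag marked 1153 sites as passed at 8 days and 1781 at 2 weeks, of which 532 passed at both ages. The median fraction was 23.3% over all sites passed at 8 days and 18.2% over all those passed at 2 weeks. The flag thus also chose the 532 sites, and its part in their difference was not tested. At these 532 sites the mean Ψ fraction was 33.2% at 8 days and 30.8% at 2 weeks. The median difference was -1.90 points, with quartiles of -5.27 and 0.38, and 378 sites were lower and 151 higher at 2 weeks. Spearman's rho between the ages was 0.96 across these sites, 0.58 across the 2377 sites passed at 1 age or both and 0.56 across all 8824, given as a description. Only 6 of the 532 sites were higher and 9 lower by 20 points or more. Over all 8824 sites, 445 (5.04%) were higher and 557 (6.31%) lower by that much, and the median difference was -0.59 points. Sites passed at 1 age only differed mostly in the direction of the flag (median -8.62 points for 606 sites passed at 8 days, 3.01 for 1239 passed at 2 weeks), which the flag itself selects.

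**Figure D5:**
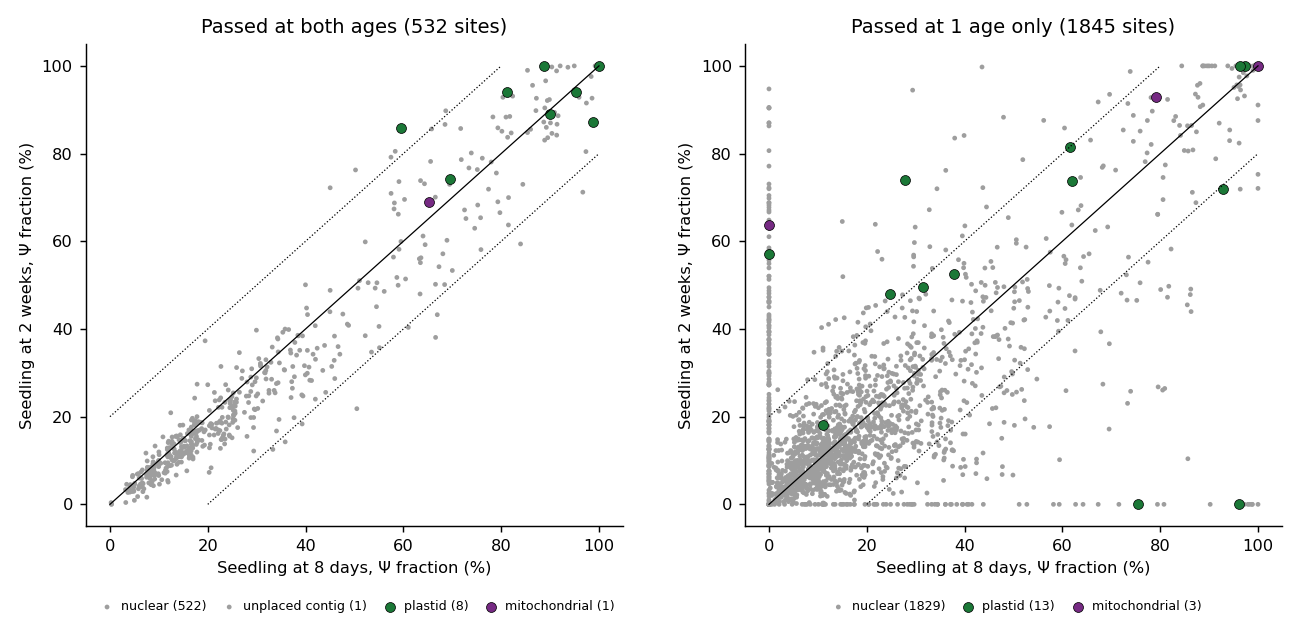
Ψ fraction in percent at 8 days (x axis) and 2 weeks (y axis) for sites passed at both ages (left, 532 sites) and at 1 age only (right, 1845 sites), each point a site with 1 pooled value an age. The solid line marks equal values and the dotted lines a difference of 20 points. Sites passed at both ages lie along the line, while many of the others are listed at 0 at the age at which they did not pass.

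At 53 sites passed in all 11 groups that have a flag and with a value in every group, the mean fraction was 31.5% at 8 days and 30.5% at 2 weeks. The other groups ranged from 29.1% in plumule in the light to 36.7% in radicle in the dark. Both ages were thus within the range of the other tissues.

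The most highly modified sites are shown first, because they show which letters surround a nearly fully modified uridine at both ages. The table gives 7 letters around each site, written here 5′ to 3′ with the modified base in capitals and with T for U. Positions are those of the deposited table (IRGSP-1.0).
Chromosome 4, position 9183746, plus strand: ggtTcga
Plastid genome, position 16286, plus strand: ggtTcga
Chromosome 2, position 28720478, plus strand: gtaTggt
Chromosome 2, position 14280250, minus strand: ggtTcga
Chromosome 2, position 28720963, plus strand: tcaTcag
The first 2 of these sites were at 100% at both ages, and the other 3 were between 97.6% and 100% at both. The letters ggttcga stood at 106 of the 9126 sites of the table. Both sites on the plus strand of chromosome 2 lie in ENSRNA049471102, which had 10.3 and 10.1 TPM at 8 days and 3.90 and 4.85 TPM at 2 weeks. These fractions stayed near their limit while the TPM of the gene was lower (log2 change -1.07, limma adjusted p = 7.6e-04). Whether its RNA carries a poly(A) tail is not given, and the part of the enrichment in its TPM was not tested. That gene held 8 sites passed at both ages, with differences from -19.4 to 2.66 points.

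The sites that moved most among those passed at both ages had other surroundings, and are given with the 3 largest rises before the 3 largest falls.
Chromosome 9, position 30186, plus strand: actTtga
Plastid genome, position 11384, plus strand: tatTcta
Chromosome 12, position 19953912, plus strand: aaaTggt
Chromosome 6, position 22656145, minus strand: cggTcgc
Chromosome 9, position 4629, plus strand: cgaTcag
Chromosome 3, position 24750800, minus strand: ctgTaat
The rises were from 45.0% to 72.2%, from 59.6% to 85.8% and from 50.2% to 76.3%. The next rises of the rule repeated 2 of these strings, with aaaTggt on chromosome 11 (58.3% to 80.5%) and tatTcta on chromosome 5 (57.5% to 79.2%). Another site with actTtga, at position 4380 of chromosome 9, went the other way, from 80.5% to 26.1%. That site passed at 8 days only. The sites with aaaTggt lay in ENSRNA049467134 and ENSRNA049475684, which had identical TPM in every seedling library and are therefore read as copies that share reads. The falls were from 50.5% to 21.8%, from 66.6% to 38.1% and from 96.7% to 71.2%. The site on chromosome 6 lies in Os06g0581000, which was higher at 2 weeks, with 9.46 and 10.5 TPM at 8 days and 41.0 and 38.1 TPM at 2 weeks. The next falls were at ggtTcaa on chromosome 5 in Os05g0513100 (84.0% to 59.4%) and at tagTggc on chromosome 5 in Os05g0305700 (66.9% to 43.3%).

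Larger differences stood at sites that passed at only 1 of the ages and were above 0 at both, where the value at the other age did not meet the authors' filter.
Chromosome 1, position 33521689, plus strand: gctTcga
Chromosome 10, position 10915392, plus strand: gttTatc
Chromosome 4, position 22795529, minus strand: taaTcgc
Chromosome 9, position 35449, plus strand: agtTata
Chromosome 6, position 28264739, plus strand: gttTctg
The first 3 were higher at 2 weeks, from 29.4% to 94.5%, from 43.6% to 99.8% and from 15.0% to 64.5%. The last 2 were lower, from 85.7% to 10.4% and from 80.9% to 26.4%. The site on chromosome 6 lies in Os06g0679200, which did not exceed 1.64 TPM in any seedling library. In contrast, Os04g0683700 was abundant and held a site at cgaTcca that went from 69.6% to 17.2%, while its expression rose from 138 and 140 TPM to 813 and 739 TPM (log2 change 2.47).

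The letters next to the modified base went with the level, and less with the difference. Among the sites passed at both ages, 100 had TTC at the centre, with means of 58.2% at 8 days and 57.3% at 2 weeks, and this triplet made up 18.8% of those sites and 10.5% of all sites in the table. The longer pattern GTTCNA, which is that of the T-loop of tRNA and of many substrates of the TruB family of synthases, held 49 of them, with means of 71.4% and 70.0%. The 83 sites with GTG had means of 17.1% and 14.5%. The median difference was below 0 for 9 of the 10 triplets with at least 10 sites, from -4.98 points for 15 sites with CTG, -3.98 for 54 with TTG and -3.43 for 54 with GTC to -0.96 for 27 with ATG. For 32 sites with GTA it was 0.08.

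Few sites on plastid RNA passed at both ages. Of these 8 sites, 4 were higher and 3 lower at 2 weeks, with means of 85.4% at 8 days and 90.5% at 2 weeks. At the 522 nuclear sites of the same kind, 146 were higher and 374 lower, with means of 32.4% and 29.9%, and the difference between the compartments was not tested. Of 21 plastid sites passed at 1 age or both, a set that the flag helps to choose, 14 were higher and 6 lower. Those 21 sites stood at 14 different strings of 7 letters, and 11 of the strings stood at nuclear sites too. The median difference had the same sign at plastid and nuclear sites for 8 of these and the opposite sign for 2, and it was 0 at the nuclear sites for 1. The letters ggtTcga, the most frequent, were higher at 0 of 5 plastid sites, with a median of -11.6 points, and at 18 of 38 nuclear sites. The letters ctgTaat differed by -1.34 points at the plastid site and by a median of 6.72 points at 9 nuclear sites, and tttTggg by 6.99 and -0.39 points. Examples with the same sign follow, chosen after their values were seen. The letters catTcga stood at a plastid site that went from 0% to 57.2%, at a mitochondrial site that went from 0% to 63.6% and at 5 nuclear sites that were all higher at 2 weeks. The letters attTcaa stood at a site in rps15, which went from 24.8% to 47.9%, and at 4 nuclear sites, all higher, by 32.8 to 46.1 points. The letters ctgTatt stood at a site in petA and at a nuclear site, which were at 75.5% and 71.6% at 8 days and at 0% at 2 weeks. Whether reads of organelle RNA reached those nuclear positions was not tested. Of 4 mitochondrial sites passed at 1 age or both, all were higher, among them aatTcga in ccmFn, from 79.1% to 92.8%.

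The number of passed sites followed expression. Of 1113 sites passed only at 2 weeks and lying in exactly 1 tested gene, 67.8% were in genes higher at 2 weeks and 10.1% in genes lower. Of 526 sites passed only at 8 days, 15.2% were in genes higher and 60.1% in genes lower. Among 5911 sites passed at neither age the shares were 29.2% and 38.8%. The larger number of passed sites at 2 weeks stood beside more read equivalents in the expression libraries of that age, and the part of depth in the flag was not tested, since the reads behind each fraction were not used here.

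The Ψ difference itself had no single relation to the change of the gene. Over 8011 sites in exactly 1 tested gene, Spearman's rho between the difference in Ψ fraction and the log2 change of expression was 0.09. At the 461 of these that passed at both ages it was -0.25, so the sign depended on which sites were taken, and sites of a gene share its expression value. Of those 461 sites, the 136 in genes higher at 2 weeks had a median difference of -3.82 points, the 146 in genes lower had -1.56 and the 179 in genes not past the threshold had -1.53. The flag chose these sites as well, and its part in these medians was not tested.

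Sites in the genes with the largest expression changes were read against the level of the gene. In Os09g0538000 a site at cgaTcga was at 7.24% at 8 days, when it passed, and was listed at 0 at 2 weeks, when the gene had fallen to 4.53 TPM or less. In Os04g0486950, which rose from 4.15 and 3.21 TPM to 572 and 492 TPM, a site at ggcTcat was listed at 0 at 8 days and at 21.9% at 2 weeks. In Os03g0826900 a site at agcTctg was listed at 0 at 8 days and at 11.3% at 2 weeks. In each case the value of 0 belongs to the age at which the gene was near its lowest level, and a fraction of 0 there cannot be told apart from too few reads.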

How the data were processed

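Poly(A)-enriched RNA of each seedling age gave 2 input and 3 bisulfite-treated libraries. The deposited expression values are TPM made by the authors, with 2 columns an age whose names do not say input or treated, and the aligner and counting are not given in the sources used here. The deposited Ψ fraction was made by the authors with their BID-seq pipeline on IRGSP-1.0, from gapped and ungapped reads summed over replicates and calibrated, and is printed here as percent. The passed flag marks sites that met the authors' p-value filter, and some flag columns carry words in place of the digits of the tissue name, which were read by the tissue they name. There were 0 columns of other samples.

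The test of TPM was limma's (version 3.58.1, R 4.3.3), on log2(TPM + 1). Genes entered that reached 1 TPM in 2 or more of 24 libraries, with all 12 groups in the fit, a trend in the variance and Benjamini-Hochberg adjustment over 29987 genes at 0.05. Folds on this scale understate the change of low genes. Read equivalents are estimates: between 49.4% and 62.6% of the seedling values came out whole within 0.02, so they served only to compare replicates and depth and for the alternative with voom. The depth behind each Ψ fraction is unknown, and no interval is given. Sites were placed in a gene where exactly 1 gene span on their strand held them. Exons and untranslated regions were not analysed here.

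Named genes were the 12 largest rises and 12 largest falls past the threshold, without overlap of the libraries and with a mean of at least 32 TPM. The rule for each list took all tested members where the list had 8 or fewer. For longer lists it took the most abundant member and the 2 largest rises and falls past the threshold. The text names only part of these members. This holds for photosystem II, complex I, cytochrome c maturation, and the panicle, embryo, endosperm and straw lists, among others. Other members, the runs of neighbouring genes, and the entries left out of or merged in summed levels were chosen after their values were seen. Named sites were the 6 largest rises and falls among sites above 0 that passed at 1 age or both, the 5 highest and the 5 largest rises and falls among sites passed at both ages, and up to 6 sites in named genes. The members and lists were chosen with earlier results of these data known. Lists by annotated gene name, including the tissue markers first chosen, could not be applied because the identifiers carry no names, and the plastid, mitochondrial and organ lists took their place. The fit was tested on simulated data. Site summaries used Python 3.11.15 with pandas 2.3.3 and SciPy 1.17.1.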

Additional observations from a re-analysis of the deposited data

How the results depend on the processing

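The counts of all genes higher and lower at 2 weeks, of plastid, mitochondrial, plumule and radicle genes lower and of flag leaf genes higher stayed within 1.5 times their main value under every alternative run. Smaller counts did not: plastid genes higher (4) ranged from 2 to 7, flag leaf genes lower (10) from 5 to 14, and panicle genes lower (43) reached 82 with voom. Endosperm genes higher and lower (8 each) ranged from 3 to 37 and from 3 to 36, and embryo genes higher (26) from 19 to 47. No gene past the threshold turned to a call in the other direction. Leaving out each seedling library in turn, where the lone library is assumed to vary like the other groups, gave 12787 to 13509 calls, against 15402. The same range was 6683 to 7231 genes higher, 5912 to 6278 lower, 46 to 51 organelle genes lower (22 to 26 plastid and 23 to 25 mitochondrial), 98 to 101 flag leaf genes higher, 39 to 41 plumule genes lower and 138 to 155 radicle genes lower. The voom fit on read equivalents shifted the median of all genes to -0.19 and gave 7088 higher and 8976 lower, and trimmed-mean scaling gave 7490 and 7804. Rescaling to nuclear genes alone, chosen after seeing the data, gave 8222 and 7175. The 24 genes of the naming rule kept their call under all alternatives, while 27 plastid or mitochondrial genes missed the threshold under at least 1. The numbers of the replicates did not pair the libraries: same-numbered deviations correlated at 0.0027 across 24720 genes, and with the replicate block within the 4 seedling libraries 6117 genes were higher and 5593 lower.

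The Ψ summaries depended on which sites entered. The median difference was -1.90 points at sites passed at both ages, -1.56 at sites above 0 at both ages and -1.09 in genes at 10 TPM or more at both ages. Sites passed at 1 age or both were higher by 20 points or more in 6.82% of cases. The shares higher and lower by 20 points were 1.13% and 1.69% at sites passed at both ages, 2.12% and 4.69% at sites above 0, and 2.33% and 3.99% in genes at 10 TPM or more. A difference of 10 points gave 11.0% higher and 15.0% lower, and of 30 points 2.81% and 3.18%. Spearman's rho between the Ψ difference and the expression change was 0.20 at sites passed at 1 age or both, -0.25 at those passed at both and -0.069 at those above 0. The cause was not tested. Unknown depth limits every statement on a single site.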
